A study of Mus musculus with 3 samples.

Results

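The 32 genes described here encode proteins of the nucleolus and of ribosome production: Polr1a, Polr1b, Npm1, Ncl, Ddx21, Mybbp1a, Nolc1, Gnl3, Fbl, Nop56, Nop58, Rrp9, Dkc1, Gar1, Nhp2, Nop10, Pwp2, Wdr43, Wdr75, Heatr1, Utp20, Nop14, Rrp12, Bop1, Pes1, Wdr12, Nop2, Nop16, Noc2l, Noc3l, Rrs1 and Rrp1b. They were taken by name as nucleolar genes known to be targets of the transcription factor MYC. All 32 were found among the 32285 genes of the count matrix. Their levels were compared between B cell states, between genotypes, and between cells with and without a Myc transcript.

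Ribosome production begins in the nucleolus, where RNA polymerase I copies the ribosomal RNA genes into a long precursor. Small nucleolar ribonucleoproteins modify that precursor, and separate groups of assembly factors cut and fold it into the small and the large ribosomal subunit. MYC is known to raise the transcription of many of these genes, in part through the E-box CACGTG. B cells induce Myc when they meet antigen and T cell help, and in germinal centres (GCs) MYC protein is known to be limited to a small set of cells about to re-enter division.

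The cells came from the spleens of 3 LDHA-sufficient mice, labelled WT on their hashtags, and 3 LDHA-deficient mice, labelled KO. LDHA is lactate dehydrogenase A, the enzyme that turns pyruvate into lactate. Each mouse carried its own hashtag, an antibody against CD45 and MHC class I that bears a DNA barcode. Cells were sorted for viability, for B cell identity and on GL7, a marker of GC B cells, then pooled on a single lane for 5′ single-cell RNA sequencing. The Cre line or other means of deletion, the deleted part of Ldha, and the animals' age, immunisation and background strain are not stated in the sources used here. For the hashtag and for the heavy chain library the labels name hematopoietic stem and progenitor cells as the cell type, whereas the protocols and the transcripts below describe B cells.

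Promoter sequences are shown first because the genes were chosen as MYC targets. RefSeq windows (assembly GRCm38.p6) from 250 bases before to 50 bases after the start of transcription were available for 27 of the 32 genes. Rrs1, Fbl, Bop1, Npm1 and Rrp12 had no entry. CACGTG, which reads the same on both strands, was present in 5 of the 27 windows (18.5%), against 2187 of 27025 genes (8.09%). In the 250 bases before the start it was present in 1 of the 27 (3.70%), against 1854 of the 27025 genes (6.86%). That gene was Nop2, an RNA methyltransferase of large subunit assembly. Its last 120 bases before the start lie at chr6:125131763-125131882 on the plus strand. The same 120 bases of Ncl (chr1:86359456-86359575, minus strand) and Nop10 (chr2:112261806-112261925, plus strand) are shown as the most highly counted of the matched genes with no CACGTG in the window. Capitals mark the E-box.

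Nop2: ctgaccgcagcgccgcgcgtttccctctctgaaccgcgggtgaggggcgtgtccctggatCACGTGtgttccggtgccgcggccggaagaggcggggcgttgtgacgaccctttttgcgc

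Ncl: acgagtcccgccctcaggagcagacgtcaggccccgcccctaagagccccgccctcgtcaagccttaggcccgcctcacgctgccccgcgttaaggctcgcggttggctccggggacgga

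Nop10: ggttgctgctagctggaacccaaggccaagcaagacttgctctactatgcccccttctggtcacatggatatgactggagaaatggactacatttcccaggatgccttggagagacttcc

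The other 4 windows held CACGTG after the start. They belonged to Mybbp1a (chr11:72441355-72441376, plus strand), Wdr43 (chr17:71616220-71616249, plus), Pes1 (chr11:3963965-3963994, plus) and Utp20 (chr10:88826765-88826789, minus). These 4 were added after the windows had been searched. A match is a description of these letters, not of binding, and a window without one says only that the letters are not there.

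Mybbp1a: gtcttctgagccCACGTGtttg

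Wdr43: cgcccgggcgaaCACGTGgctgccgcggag

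Pes1: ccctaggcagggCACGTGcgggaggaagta

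Utp20: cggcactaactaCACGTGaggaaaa

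The labels give a target of 30000 cells on the lane, and the deposited matrix held 2836 barcodes. Of these, 2831 also had hashtag counts, 1856 carried the hashtag of a single mouse, 820 carried those of more than 1 mouse and 155 carried none. After filters 1849 cells with 10230775 unique molecular identifiers (UMIs) remained, and 81 of them clustered with markers of other cell types and were left out. The 1768 B-lineage cells comprised 1581 outside the GC, 170 GC B-like cells and 17 plasma cell-like cells, with 1124025 to 2120266 UMIs per mouse. GC B-like cells numbered 62, 73 and 16 in the LDHA-sufficient mice and 8, 6 and 5 in the LDHA-deficient mice. The GL7 sort can set such class sizes, so they are not compared. Red cell markers, summed over 5 genes, were uneven among the mice, at 619, 23.4 and 3229 CPM (UMIs per 1000000 UMIs) in LDHA-sufficient mice 1, 2 and 3 and 33.8 to 158 CPM in the LDHA-deficient mice. Their part in the results was not tested, but results without LDHA-sufficient mouse 3 are given where they differ.

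Ldha itself was measured first as a check of the labels. Over all B cells it stood at 236, 237 and 166 CPM in LDHA-sufficient mice 1, 2 and 3 and at 48.0, 50.02 and 70.9 CPM in LDHA-deficient mice 1, 2 and 3, so the genotypes did not overlap. It fell by 1.93 ± 0.18 (log2, SE) in edgeR's quasi-likelihood test (adjusted p = 0.000869). Values of single mice in comparisons of genotype are CPM scaled by edgeR's library normalisation, and those in comparisons of state are plain CPM. The Ldha transcripts that remained in the LDHA-deficient mice may lie outside the deleted part, which is not given. Their source was not tested.

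The 32 genes were grouped by role. Over all B cells the group of early precursor factors and nucleolar organisers (Npm1, Ncl, Ddx21, Mybbp1a, Nolc1 and Gnl3) held 22275 UMIs. The box H/ACA ribonucleoprotein genes (Dkc1, Gar1, Nhp2 and Nop10) held 4183, the box C/D genes (Fbl, Nop56, Nop58 and Rrp9) 3740 and the 9 large subunit genes 3617. The 7 genes of the small subunit processome held 3260 and the RNA polymerase I subunit genes Polr1a and Polr1b held 474. UMIs count captured molecules and were not divided by gene length. Npm1 and Ncl alone therefore weighed heavily in any sum over the list, and sums are also given without them.

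Of single genes, the 6 with the highest mean CPM over all B cells were Npm1, Ncl, Nop10, Ddx21, Mybbp1a and Fbl. Npm1 encodes nucleophosmin, a chaperone that organises the outer nucleolus (ENSMUSG00000057113, chr11:33152287-33163206, minus strand, GENCODE on GRCm38), and averaged 968 ± 85.4 CPM (SD, n = 6 mice). Ncl encodes nucleolin, which binds the ribosomal RNA precursor (ENSMUSG00000026234, chr1:86344719-86359400, minus strand), and averaged 773 ± 87.7 CPM. Nop10, a small H/ACA protein, averaged 218 CPM, the RNA helicase gene Ddx21 197 CPM, the MYB-binding nucleolar protein gene Mybbp1a 151 CPM and Fbl, the methyltransferase fibrillarin, 143 CPM. The lowest means were those of Polr1b at 14.2 CPM and Rrp12 at 12.6 CPM. Npm1 has processed copies elsewhere in the genome, and no source used here states how reads matching several places were counted.

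The comparison of states asked in which B cells the nucleolar genes were high. Cells were clustered without the 32 genes, without the other ribosome biogenesis and ribosomal protein genes, and without Myc and Ldha. A state is still a set of cells grouped by their own transcripts, so states are described and not tested. Follicular B-like cells (1025 cells, with Fcer2a, Ighd and Cd55) were the base. The activated B-like cluster (178 cells) was led by immediate early genes such as Egr2, Egr3 and Nr4a1. It carried 12 of the activation markers, among them Cd69, Cd83 and Irf4. The activation markers Cd86, Gadd45b, Ccl3 and Ccl4 were not among the 12. They stood at 25.4, 76.1, 2.46 and 7.37 CPM in activated and 50.3, 111, 15.7 and 70.8 CPM in GC B-like cells. Cd86, Ccl3 and Ccl4 were also lower in activated B-like cells than over all B cells. Myc, although left out of the clustering, was among the leading genes of the activated cluster too.

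Activated B-like cells had the highest summed CPM of the nucleolar genes in every mouse. In follicular B-like cells the 32 genes summed to 2828, 2887 and 2762 CPM in LDHA-sufficient mice 1, 2 and 3 and to 2876, 2858 and 2939 CPM in LDHA-deficient mice 1, 2 and 3. In activated B-like cells they summed to 6559, 8099 and 8158 CPM in the LDHA-sufficient and 7528, 7649 and 7799 CPM in the LDHA-deficient mice. The lowest activated value was thus above the highest follicular value. The means were 2858 ± 59.8 and 7632 ± 580.4 CPM (SD, n = 6), and 10.9 ± 0.40 and 52.1 ± 8.52 UMIs per cell. Without Npm1 and Ncl the other 30 genes summed to 1648 ± 74.7 CPM in follicular and 4179 ± 279.0 CPM in activated B-like cells. After every cell was thinned to 2000 UMIs, a follicular B-like cell showed 4.26 ± 0.12 of the 32 genes and an activated B-like cell 8.01 ± 0.32, so the gap was also present at equal depth.

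The other states lay nearer to the follicular level. Interferon-responding B-like cells, led by Ifit3 and Rsad2, held 3216 ± 306.5 CPM of the 32 genes, and marginal zone B-like cells, with Cr2 and Cd1d1, held 3122 ± 374.4 CPM. GC B-like cells, with Bcl6 and S1pr2, fell between follicular and activated cells at 4391 ± 681.0 CPM. Their values were 5228, 4271 and 4001 CPM in the LDHA-sufficient mice and 5249, 3881 and 3716 CPM in the LDHA-deficient mice, the last 3 from 8, 6 and 5 cells. Every GC value lay below every activated value and above every follicular value. GC B-like cells also had more UMIs in total per cell, and carried 61.8 ± 11.2 UMIs of the 32 genes per cell. This mean was above that of activated B-like cells, although the shares were lower. At 2000 UMIs a GC B-like cell showed 5.29 ± 0.50 of the 32 genes.

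**Figure D1:**
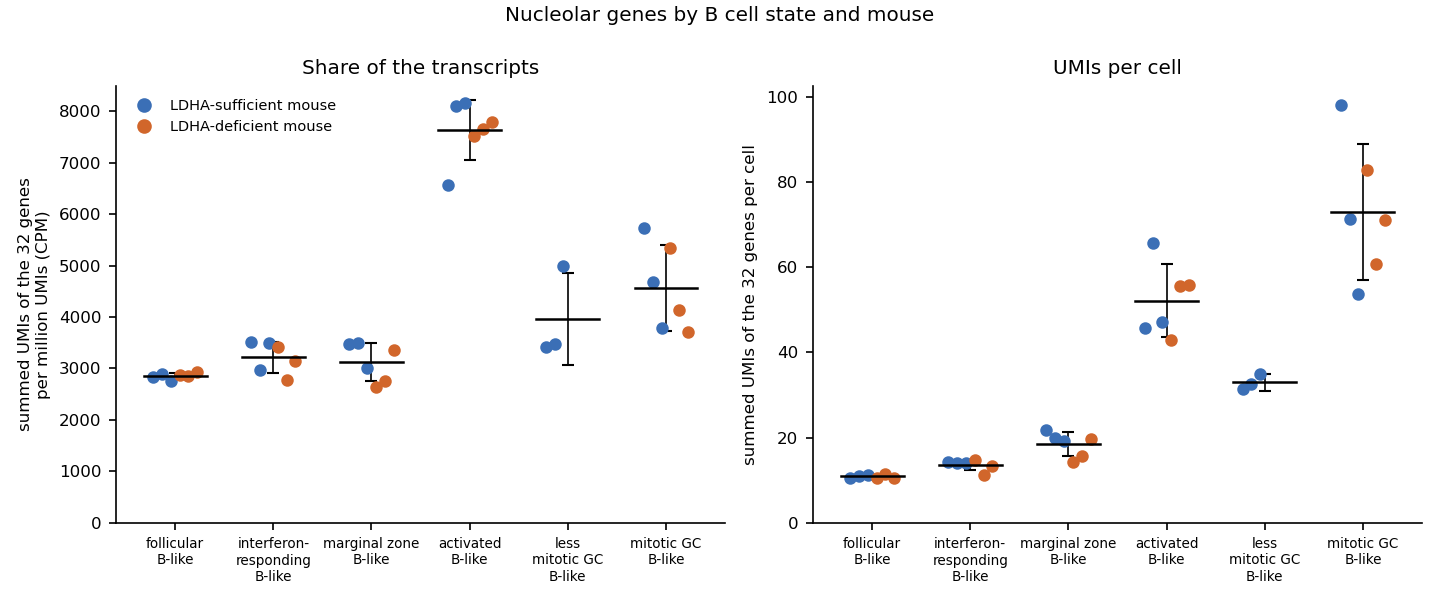
Summed UMIs of the 32 nucleolar genes by B cell state, as CPM (left) and per cell (right). Each point is a mouse with at least 5 cells of that state, the wide bar is the mean and the error bar 1 SD; activated B-like cells stand highest in CPM (7632), and mitotic GC B-like cells highest per cell.

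Every role was higher in the activated state. The early precursor and organiser genes summed to 1627 ± 62.7 CPM in follicular and 4605 ± 391.4 CPM in activated B-like cells. The box C/D genes stood at 284 ± 22.0 and 738 ± 66.3 CPM, the H/ACA genes at 333 ± 14.3 and 783 ± 115 CPM and the large subunit genes at 281 ± 12.2 and 769 ± 75.9 CPM. The small subunit genes stood at 294 ± 33.5 and 627 ± 49.3 CPM, and Polr1a and Polr1b together at 39.9 ± 9.74 and 109 ± 29.8 CPM. Of the 32 genes, 30 were higher in activated than in follicular B-like cells of all 6 mice (93.75%), against 11.6% of the 9513 genes with at least 50 UMIs. The other 2, Bop1 and Nop14, were higher in 5 of 6 mice. With 1 CPM added to each level, the median ratio was 2.54 over the 32 genes (range 1.59 to 5.39) and 1.01 over all 9513 genes.

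The 3 largest ratios were those of Rrp1b, Polr1b and Gnl3. Rrp1b, a nucleolar protein of large subunit assembly that recruits a phosphatase, stood at 13.5, 7.88 and 8.83 CPM in follicular cells of the LDHA-sufficient mice and 8.57, 14.0 and 13.8 CPM in those of the LDHA-deficient mice. In activated cells it stood at 69.4, 83.6, 69.1, 48.5, 65.02 and 49.6 CPM in the same order, a ratio of means of 5.79. No follicular value reached an activated one. Polr1b, a catalytic core subunit of RNA polymerase I, had a ratio of 4.41 (44.8 ± 20.6 against 10.2 ± 3.24 CPM). Gnl3, which encodes the nucleolar GTPase nucleostemin, had a ratio of 4.35 (239.7 ± 49.4 against 55.1 ± 10.8 CPM). These genes were named after their values were seen.

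The 2 most abundant genes, Ncl and Npm1, had intermediate ratios. Ncl stood at 511, 551, 461, 519, 560.3 and 563 CPM in follicular cells and at 1324, 1839.8, 1791, 1569.9, 1756 and 1663 CPM in activated cells (LDHA-sufficient 1 to 3, then LDHA-deficient 1 to 3), a ratio of 3.14. Npm1 stood at 615, 666, 711, 603, 746 and 754 CPM in follicular and at 1576, 2020.2, 2129, 1685, 1725 and 1636 CPM in activated cells, a ratio of 2.63. For both genes all activated values lay above all follicular values. Nop10, Ddx21, Mybbp1a and Fbl had ratios of 1.83, 2.22, 2.32 and 2.34. Nop10 thus had one of the smallest ratios among the 32 genes, and only that of Nop14, a small subunit factor, was lower (1.60).

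Within each role the ratios spread widely. Among the early factors they ran from 2.22 (Ddx21) to 4.35 (Gnl3), with Nolc1, a scaffold between the nucleolus and Cajal bodies, at 3.52. In the box C/D group, whose core proteins are Fbl, Nop56 and Nop58, they ran from 2.34 (Fbl) to 3.55 (Rrp9, a protein of the U3 particle). In the H/ACA group the pseudouridine synthase gene Dkc1 had 3.21, Gar1 2.96 and Nhp2 2.93. In the small subunit group Rrp12 had 3.90, followed by Utp20 (2.49), Heatr1 (2.48), Wdr75 (2.40), Pwp2 (1.97) and Wdr43 (1.86). In the large subunit group Nop16 had 3.82, Nop2 3.59 and Rrs1 3.23. The members of the PeBoW complex, which matures the large subunit, had 2.78 (Wdr12), 2.34 (Bop1) and 1.88 (Pes1). The adaptors Noc2l and Noc3l had 2.39 and 2.01.

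GC B-like cells were set against follicular cells in the 3 LDHA-sufficient mice, whose GC classes held 62, 73 and 16 cells. Of the 32 genes 16 were higher in GC B-like cells of all 3 mice (50%), against 32.1% of the 9513 genes, and the mean was higher for 30. The median ratio was 1.38 for the 32 genes and 1.07 for all genes. The highest ratio was that of Rrp9, at 24.6, 15.3 and 20.9 CPM in GC and 5.81, 12.6 and 4.42 CPM in follicular B-like cells of LDHA-sufficient mice 1, 2 and 3 (2.66). Gar1, a structural H/ACA protein, was next, at 99.4, 74.1 and 68.0 CPM against 36.8, 50.4 and 26.5 CPM (2.12). For Rrp9 and Gar1 no follicular value reached a GC value. Ncl and Npm1 had ratios of 1.90 and 1.88.

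The lowest GC ratios belonged to Pwp2 and Noc3l. Pwp2, a WD-repeat protein of the small subunit processome, stood at 21.2, 15.3 and 5.23 CPM in GC and 21.3, 17.3 and 14.7 CPM in follicular B-like cells, a ratio of 0.78. It was the only member lower in all 3 mice (3.125%, against 23.4% of the 9513 genes). Noc3l stood at 26.8, 28.3 and 26.2 CPM in GC and 19.4, 45.7 and 30.9 CPM in follicular cells (0.85), with overlap. Set directly against activated B-like cells, 24 of the 32 genes were lower in GC B-like cells of all 3 mice (75%), against 15.1% of the 9513 genes, and no mean was higher. The median ratio of GC to activated cells was 0.56. Within the GC, mitotic against less mitotic cells of these 3 mice, 6 of the 32 genes were higher in all 3 (18.8%, against 18.6% of all genes) and 4 lower (12.5%, against 11.1%), with median ratios of 1.09 and 1.04. Mki67, a marker of cycling cells, stood 34.9 times higher in GC than in follicular cells and 3.88 times higher in activated than in follicular cells.

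**Figure D2:**
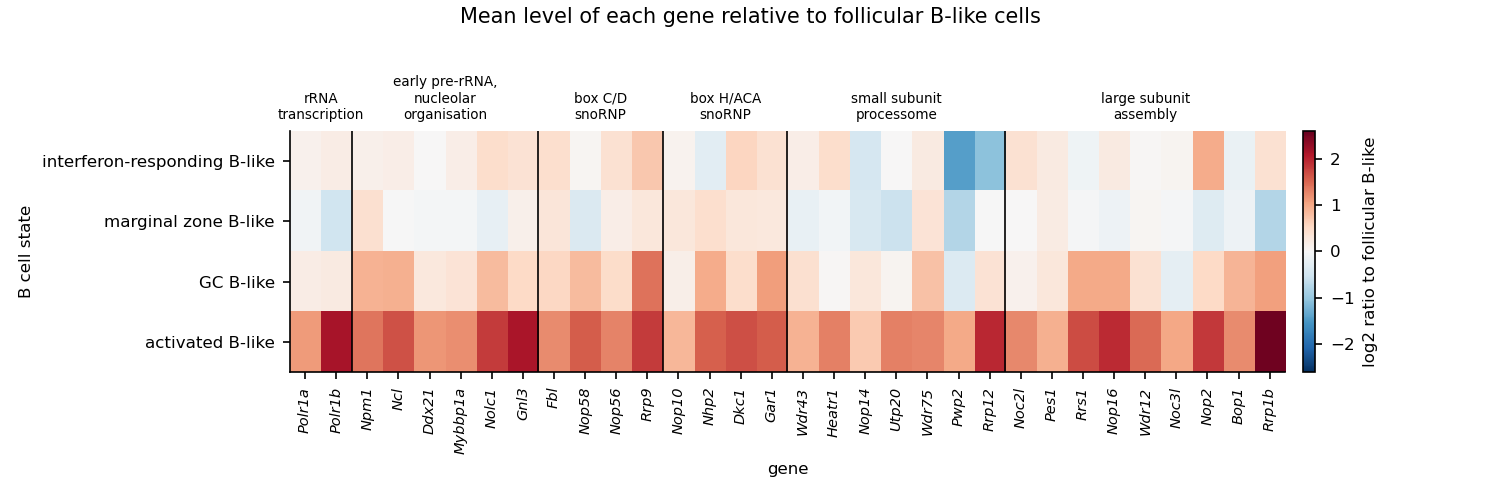
Log2 ratio of the mean CPM of each nucleolar gene in 4 B cell states to its mean in follicular B-like cells, ordered by role. The row of activated B-like cells is red for all 32 genes; in GC B-like cells the ratio is below 1 for Pwp2 and Noc3l only (3 LDHA-sufficient mice for GC, 6 mice for the other states).

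Between activated and follicular B-like cells the other genes of the pathway had lower median ratios than the 32 genes. Of 112 further ribosome biogenesis genes, 53 were higher in activated than in follicular B-like cells of all 6 mice (median ratio 1.62). Of 80 cytoplasmic ribosomal protein genes, 39 were (median 1.09), and of 13 further genes of ribosomal RNA transcription, 6 were (median 1.51). In GC against follicular cells the same counts were 45 of 112 (1.29), 8 of 13 genes of ribosomal RNA transcription (1.52) and 11 of 80, with 55 of the 80 ribosomal protein genes lower in all 3 mice (0.88). Of the 9513 genes 32.1% were higher and 23.4% lower in all 3 mice. Myc stood at 109, 136 and 263 CPM in activated cells of the LDHA-sufficient mice and 236, 314 and 252 CPM in those of the LDHA-deficient mice, against 30.8 ± 9.53 CPM in follicular cells (ratio 7.09). In GC against follicular cells of the LDHA-sufficient mice the ratio of Myc was 1.15.

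The comparison of genotypes asked whether the nucleolar genes differed in B cells without LDHA. UMIs were summed per mouse, 3 mice against 3, and each sum was tested with edgeR across all genes that passed a filter on low counts. No nucleolar gene passed an adjusted p of 0.05 in all B cells, in B cells outside the GC, in activated B-like cells or in GC B-like cells. DESeq2 also called none in any of these. Summed CPM of the 32 genes in the 2 genotypes were 3790.0 ± 213 (LDHA-sufficient) and 3779 ± 272 (LDHA-deficient) outside the GC. They were 7605 ± 906 and 7659 ± 136 in activated and 4500.2 ± 645 and 4282 ± 841 in GC B-like cells. Each of these differences was smaller than the SD between mice of one genotype.

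Over all B cells, 0 of 32 nucleolar genes were called, against 1.09% of 9185 genes (14 higher and 86 lower in LDHA-deficient cells). None of the 32 had an unadjusted p under 0.05, against 17.3% of all genes. The median log2 difference was -0.00 for the 32 genes and 0.02 for all genes, and 15 of the 32 were positive. All 32 intervals (95%) lay within a 2-fold change and 21 within a 1.5-fold change. The smallest p belonged to Nop58, a core box C/D protein, with 143, 137 and 121 CPM in LDHA-sufficient mice 1, 2 and 3 and 120.3, 99.4 and 116 CPM in LDHA-deficient mice 1, 2 and 3. The LDHA-deficient values were all lower, with the highest of them close to the lowest LDHA-sufficient value. The log2 difference was -0.26 ± 0.13 (edgeR adjusted p = 0.300).

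The next genes by p pointed both ways. Pwp2 stood at 19.5, 21.2 and 13.7 CPM in the LDHA-sufficient and 23.6, 24.7 and 28.9 CPM in the LDHA-deficient mice, without overlap (0.46 ± 0.23, edgeR adjusted p = 0.310). Noc2l stood at 83.1, 68.7 and 75.6 against 86.6, 87.1 and 98.9 CPM, also without overlap (0.26 ± 0.13, edgeR adjusted p = 0.322). Utp20, a large scaffold of the small subunit processome, stood at 49.2, 38.1 and 35.1 against 58.9, 48.8 and 48.1 CPM, with overlap (0.33 ± 0.17, edgeR adjusted p = 0.351). Nop56 was also higher in each LDHA-deficient mouse, at 113, 114 and 112 against 105, 105 and 81.7 CPM (0.20 ± 0.13, edgeR adjusted p = 0.439). Npm1 was lower in each, at 872, 959.7 and 961 against 1057, 1044 and 967 CPM (-0.14 ± 0.10, edgeR adjusted p = 0.491). None of these differences passed the test.

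LDHA-sufficient mouse 3, which had the highest red cell markers and 16 GC B-like cells, weighed on the number of calls over all B cells. Without it edgeR called 15.5% of 9555 genes (566 higher and 913 lower). Nop58 was then the only nucleolar gene called (-0.34 ± 0.12, adjusted p = 0.0488). The count without 1 of the other 5 mice ran from 1 (without LDHA-deficient mouse 2) to 48, and no nucleolar gene was called in those fits. Cell cycle genes were lower over all B cells of the LDHA-deficient mice. With all 6 mice, 7 of 20 genes of G2 and M phase were called lower (median log2 -1.45). Of 20 S phase genes 8 had an unadjusted p under 0.05, all lower. Whether this came from the makeup of the cells or from levels within a class was not tested. Without LDHA-sufficient mouse 3, 16 of 20 genes of G2 and M phase and 20 of 20 S phase genes were called lower. Plasma cell markers, summed over 6 genes, stood at 2442, 1322 and 2988 CPM in LDHA-sufficient mice 1, 2 and 3 and at 672, 245 and 540.02 CPM in LDHA-deficient mice 1, 2 and 3, without overlap. Their part in the result was not tested over all B cells, and the comparisons below are made by class, without plasma cell-like cells. The class outside the GC still pools follicular, interferon-responding, marginal zone and activated B-like cells, and its makeup was not held fixed.

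Outside the GC, 0 of 32 genes were called, against 0.071% of 8454 genes, and none had an unadjusted p under 0.05. The median log2 difference was 0.00, with 17 of 32 positive, and 31 intervals lay within a 2-fold change. Nop56, at 105, 107 and 82.8 CPM in the LDHA-sufficient and 112, 116 and 111 CPM in the LDHA-deficient mice, differed by 0.20 ± 0.12, without overlap. Mybbp1a stood at 190.4, 173 and 143 against 161, 138 and 142 CPM, with overlap (-0.20 ± 0.11). Polr1b (19.3, 26.0 and 12.1 against 14.1, 12.3 and 16.3 CPM) had the most negative value, -0.45 ± 0.30. Nop10 (-0.14 ± 0.10), Nop58 (-0.18 ± 0.12) and Utp20 (0.24 ± 0.18) completed the 6 genes of smallest p, and all 6 had an edgeR adjusted p of 0.976. Intervals were narrow for the most abundant genes: Ncl differed by 0.00 (-0.16 to 0.17) and Npm1 by -0.07 (-0.22 to 0.08). Ldha fell by 1.67 ± 0.16 in the same sums (edgeR adjusted p = 4.5e-06).

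In activated B-like cells (29, 28 and 25 cells of LDHA-sufficient mice 1 to 3, against 29, 36 and 31 of LDHA-deficient mice 1 to 3) 0 of 30 genes tested were called, against 0.082% of 3659 genes. Polr1b and Rrp12 did not pass the filter on low counts. Of the 30 genes 22 were positive, with a median log2 difference of 0.10 against 0.01 for all genes. Ddx21 was the only one with an unadjusted p under 0.05 (0.0355). It stood at 329, 337 and 389.6 CPM in the LDHA-sufficient and 509, 429 and 476 CPM in the LDHA-deficient mice, without overlap (0.42 ± 0.20, edgeR adjusted p = 0.777). Noc2l stood at 165, 152 and 135 against 151, 245 and 241 CPM, with overlap (0.51 ± 0.26, edgeR adjusted p = 0.882). Nop58 pointed the other way, at 278, 308.1 and 421 against 227, 231 and 299 CPM (-0.39 ± 0.22, edgeR adjusted p = 0.904). Nop56 (0.38 ± 0.25), Gnl3 (0.34 ± 0.23) and Nolc1 (0.30 ± 0.22) had edgeR adjusted p values of 0.953, 0.960 and 0.962. Intervals of 24 of the 30 genes lay within a 2-fold change, and of 4 within a 1.5-fold change.

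In the same activated cells Ldha fell by 2.62 ± 0.26 (edgeR adjusted p = 1.24e-09). Myc stood at 125, 152 and 302 CPM in the LDHA-sufficient and 268, 387 and 275 CPM in the LDHA-deficient mice, with overlap (0.75 ± 0.27, edgeR adjusted p = 0.631). Genes of S phase summed to 2452 ± 177 CPM in LDHA-sufficient and 1413 ± 690 CPM in LDHA-deficient activated cells, and 1 of 16 tested was called lower. All 16 were negative, and 9 had an unadjusted p under 0.05, against 5.77% of all genes. Mki67 had a log2 difference of -1.16 ± 0.72 (edgeR adjusted p = 0.962), and of -2.35 without LDHA-deficient mouse 3 (adjusted p = 1.58e-05). The sum of the 32 nucleolar genes, given above, differed by less than the SD between mice in these cells.

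In GC B-like cells the LDHA-deficient sums rested on 8, 6 and 5 cells. Of the 15 nucleolar genes that passed the filter 0 were called, and 0% of the 2760 genes tested passed. Unadjusted p was under 0.05 for 213 of all genes and for 1 of the 15. That gene was Dkc1, at 108, 58.6 and 108 CPM in the LDHA-sufficient and 189.8, 179.9 and 92.8 CPM in the LDHA-deficient mice, with overlap (0.82 ± 0.37, edgeR adjusted p = 0.626). Gnl3 stood at 108, 77.8 and 102 against 166, 45.0 and 0 CPM (-0.34 ± 0.61, edgeR adjusted p = 0.931). Gar1 stood at 115, 86.7 and 82.6 against 59.3, 45.0 and 146 CPM (-0.22 ± 0.40, edgeR adjusted p = 0.937). In both genes the LDHA-deficient mice spanned the LDHA-sufficient values. Nop10 (0.28 ± 0.29), Fbl (0.16 ± 0.25) and Nolc1 (-0.19 ± 0.32) had edgeR adjusted p values of 0.852, 0.920 and 0.928. The median was 0.03, and 0.41 when cells were clustered with the nucleolar genes included, which put 11, 9 and 13 LDHA-deficient cells in the class.

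Ldha in GC B-like cells stood at 424, 344 and 286 CPM in the LDHA-sufficient and 71.2, 165 and 26.5 CPM in the LDHA-deficient mice (-2.08 ± 0.39), and still missed the threshold with an edgeR adjusted p of 0.172. It was called with DESeq2 (adjusted p = 0.00993) and with edgeR under 5 other settings: the hashtag ratio (adjusted p = 0.0453), clustering with the nucleolar genes (0.000123), no filter (3.41e-07), and without LDHA-deficient mouse 2 (0.0192) or LDHA-sufficient mouse 3 (0.0132). Rrp12, a repeat protein of ribosomal precursor export, had 23 UMIs in 151 LDHA-sufficient GC B-like cells (11.5 CPM) and 0 UMIs of 283806 in 19 LDHA-deficient cells. A count of 0 allows up to 10.6 CPM (3 counts over the group, counting error only), just below the level in the LDHA-sufficient cells. The bound leaves out the spread between mice, so it does not settle whether the genotypes differ, and no fold is given.

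Whether the genotype difference itself differed between GC B-like cells and cells outside the GC was tested as an interaction, with each mouse as a block. Of the 32 genes 0 were called, against 0.0991% of 9083 genes (4 higher and 5 lower). Unadjusted p was under 0.05 for 3 of the 32, namely Rrp12, Dkc1 and Nop14, and for 639 of the 9083 genes (7.04%). Nop14 stood at 54.9, 36.9 and 72.5 CPM in GC and 52.0, 61.7 and 50.7 CPM outside it in the LDHA-sufficient mice. In the LDHA-deficient mice it stood at 36.4, 10.9 and 20.0 CPM in GC and 76.0, 56.8 and 40.1 CPM outside it. These LDHA-deficient GC sums held 104020, 84247 and 95539 UMIs from 8, 6 and 5 cells, so Nop14 rested on few UMIs there. The difference of differences was -1.20 ± 0.59 for Nop14 and 0.82 ± 0.40 for Dkc1 (edgeR adjusted p = 0.703 for both). Wdr12 (-0.98 ± 0.65), Nolc1 (-0.43 ± 0.36) and Pes1 (-0.48 ± 0.50) followed. The median without Rrp12 was -0.23 over the nucleolar genes and -0.13 over all genes without those at 0 in a group. It became 0.28 when cells were clustered with the nucleolar genes included.

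**Figure D3:**
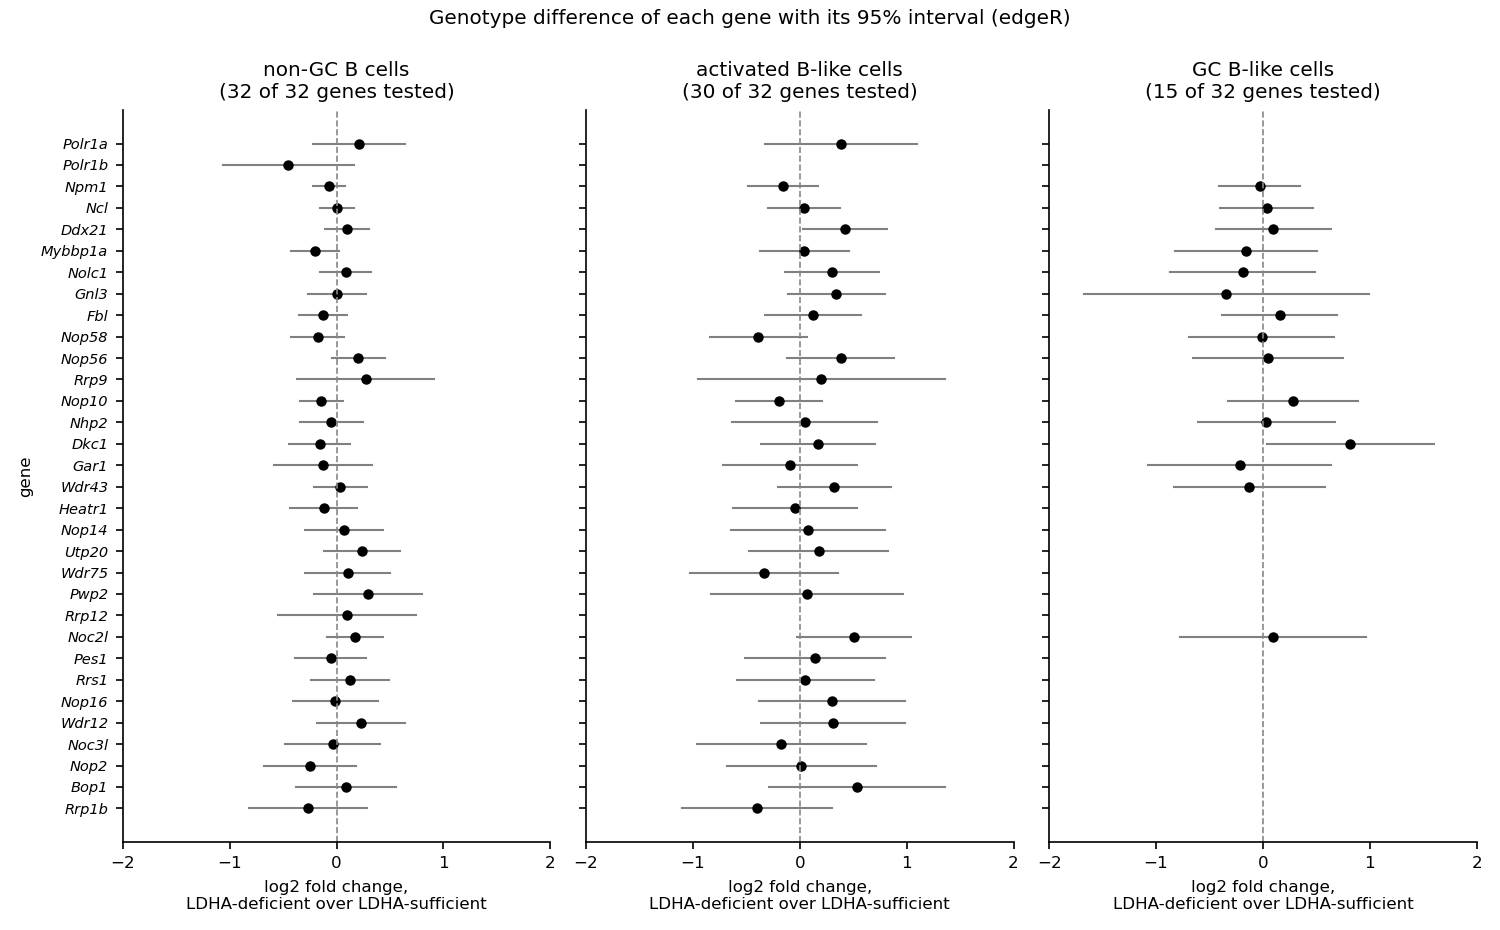
Log2 difference of each nucleolar gene between LDHA-deficient and LDHA-sufficient mice (points) with its 95% interval (lines) from edgeR, in 3 classes of B cells. No gene passed an adjusted p of 0.05, and intervals widen from cells outside the GC to GC B-like cells, where 15 genes could be tested.

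With all 6 mice, no gene of the 3 wider lists was called by genotype. Of the 112 other ribosome biogenesis genes 0 were called over all B cells (6 with an unadjusted p under 0.05, median 0.04), 0 of 111 tested outside the GC (5, median 0.02), 0 of 73 in activated (1, median 0.13) and 0 of 27 in GC B-like cells (0, median -0.03). Of the 80 ribosomal protein genes 0 were called in each class. Without LDHA-sufficient mouse 3, where edgeR called 15.5% of all genes, 2 of the 112 genes (Exosc3 and Exosc8, log2 -0.46 and -0.40) and 1 of 13 of ribosomal RNA transcription (Polr1d, -0.31) were called lower over all B cells, and of the 80 ribosomal protein genes 8 were called higher and 1 lower. The 4 further genes with the smallest p over all B cells were Surf6 (0.43 ± 0.17, edgeR adjusted p = 0.223), Exosc3 (-0.36 ± 0.15), Tcof1 (-0.25 ± 0.11) and Eif6 (-0.34 ± 0.15). Surf6 encodes a nucleolar assembly factor and stood at 28.3, 36.2 and 29.0 against 41.2, 43.2 and 42.02 CPM, with no overlap. Tcof1 encodes treacle, a cofactor of RNA polymerase I, and stood at 179, 185 and 192 against 154, 161 and 151 CPM, with no overlap. Outside the GC they were Esf1 (-0.35 ± 0.14), Naf1 (0.75 ± 0.33), Surf6 (0.45 ± 0.20) and Utp23 (0.54 ± 0.26), with edgeR adjusted p values from 0.926 to 0.965.

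In activated B-like cells the smallest p of the wider pathway belonged to the helicase gene Ddx47, at 39.7, 29.3 and 47.7 CPM in the LDHA-sufficient and 75.7, 84.9 and 68.7 CPM in the LDHA-deficient mice, without overlap (1.01 ± 0.40, edgeR adjusted p = 0.657). Cebpz (0.43 ± 0.24), Mdn1 (0.38 ± 0.23) and Tcof1 (-0.37 ± 0.24) followed. In GC B-like cells they were Bms1 (-0.74 ± 0.39, edgeR adjusted p = 0.674), Mak16 (-0.64 ± 0.38), Eif6 (-0.56 ± 0.35) and Ftsj3 (0.57 ± 0.39). In the interaction they were Mak16 (-1.03 ± 0.43, edgeR adjusted p = 0.584), Nip7 (-1.08 ± 0.49), Utp14a (-1.30 ± 0.61) and Utp25, which was at 0 UMIs in GC B-like cells of all 3 LDHA-deficient mice and gets no fold. None of these passed the test.

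Myc transcripts differed by genotype over all B cells, where the nucleolar genes were not called. Myc stood at 48.7, 50.8 and 55.7 CPM in the LDHA-sufficient and 76.6, 96.96 and 81.4 CPM in the LDHA-deficient mice, without overlap. It rose by 0.73 ± 0.14 (log2, edgeR adjusted p = 0.0200). The call was lost in 5 of the 6 fits without 1 mouse (adjusted p from 0.0646 to 0.203) and with equal cells per mouse (0.0505). Outside the GC it stood at 60.7, 59.1 and 66.0 against 82.6, 101 and 86.3 CPM, again without overlap, and was not called (0.55 ± 0.14, edgeR adjusted p = 0.194). The interaction of class and genotype for Myc was -2.02 ± 0.70 (edgeR adjusted p = 0.405), and became 0.046 when cells were clustered with the nucleolar genes included.

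The nucleolar genes were then related to Myc UMIs of the same cells. Every cell was thinned to 2000 UMIs, which left out 49 of the 1581 cells outside the GC, so that the chance of seeing a Myc UMI did not follow depth. At that depth Myc was detected in 51 of 174 activated B-like cells (29.3%, exact interval 22.7 to 36.7%) and in 57 of 989 follicular B-like cells (5.76%, 4.39 to 7.40%). The share was 12.8% in marginal zone (24 of 188), 11.05% in interferon-responding (20 of 181) and 3.59% in GC B-like cells (6 of 167). In plasma cell-like cells, looked at as a possible background, Myc was detected in 2 of 17 (11.8%, 1.46 to 36.4%). So few cells cannot set a background, and whether the other shares lie above one was not decided. Outside the GC as a whole the share was 9.92% (152 of 1532 cells), and 17.6% with all UMIs. By genotype it averaged 9.82 ± 1.64% (LDHA-sufficient) and 9.86 ± 1.97% (LDHA-deficient).

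Outside the GC, Myc-detected cells carried more nucleolar transcripts than undetected cells in all 6 mice. The 32 genes summed to 3458, 3354 and 3333 CPM in undetected and 4385, 4500.0 and 4075 CPM in detected cells of LDHA-sufficient mice 1, 2 and 3. They summed to 3338, 3119 and 3500.0 CPM in undetected and 3579, 4200.0 and 4326 CPM in detected cells of LDHA-deficient mice 1, 2 and 3. Every detected value was above every undetected value, and the mean log2 difference was 0.32 ± 0.12 (SD, n = 6). Activated B-like cells made up 33.9 ± 6.01% of the detected and 9.03 ± 1.71% of the undetected cells. With the share of activated cells alone set to that of the detected cells, and levels of undetected cells, the sum would be 4464 ± 377 CPM, against 4177 ± 328 CPM observed. The activated cluster was drawn from these same cells and had Myc among its leading genes. The part of the activated share in the difference was not tested.

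With the activated cluster held apart, the sums lay closer together or pointed the other way. Outside the activated cluster the 32 genes summed to 2950.1 ± 98.2 CPM in undetected and 2962 ± 255 CPM in detected cells, higher in 4 of 6 mice (log2 0.00 ± 0.15). Within the activated cluster the sums were 7390.5 ± 269 CPM in undetected and 6564 ± 1004 CPM in detected cells, higher in 1 of 6 mice (-0.18 ± 0.21), from 5 to 12 detected cells per mouse. These within-class values are descriptions, since the clusters were drawn from the same cells.

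**Figure D4:**
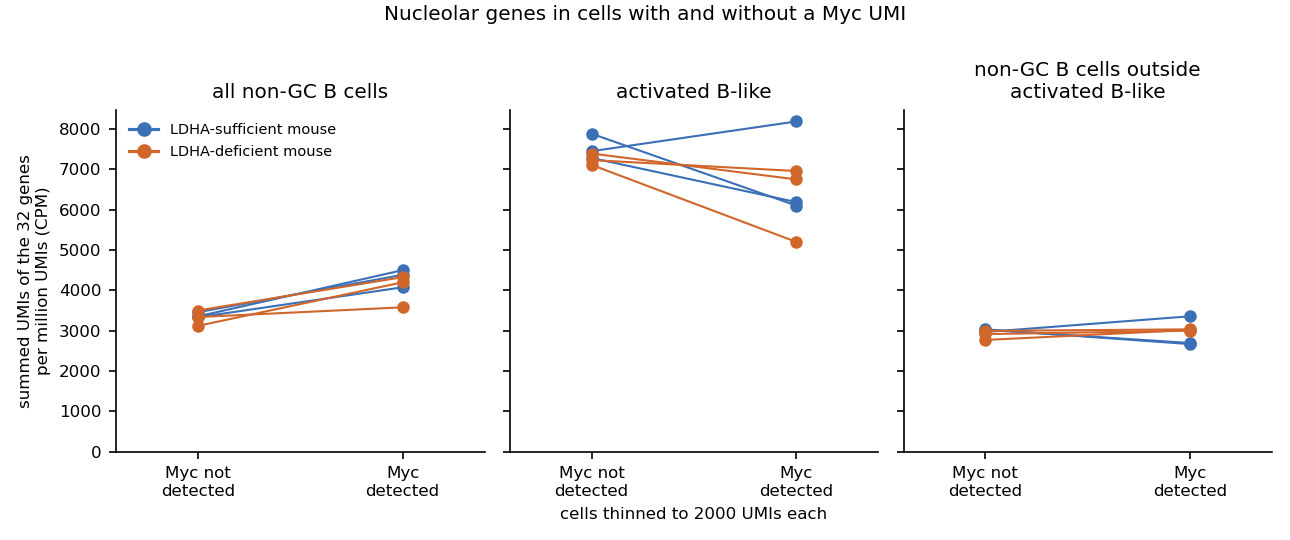
Summed CPM of the 32 nucleolar genes in cells without and with a Myc UMI, each cell thinned to 2000 UMIs, with a line for each mouse. The lines go up in all 6 mice over all cells outside the GC, and in 1 of 6 within activated B-like and 4 of 6 outside activated B-like cells.

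Gene by gene at 2000 UMIs, no nucleolar gene passed the test. In sums per mouse with the mouse as a block, 0 of 29 genes tested were called between Myc-detected and undetected cells, against 0.472% of 5505 genes (14 higher and 12 lower). LDHA-deficient mouse 1 was left out, with 19 detected cells under a minimum of 20. Of the 29 genes 23 were positive, with a median of 0.27 against -0.05 for all genes, and 4 had an unadjusted p under 0.05, as had 387 of all genes. Ddx21 had the smallest p (0.53 ± 0.21, edgeR adjusted p = 0.458). It stood at 197, 189, 234, 135 and 228 CPM in undetected and 159, 293, 299.6, 365 and 221 CPM in detected cells of LDHA-sufficient mice 1, 2 and 3 and LDHA-deficient mice 2 and 3, higher in 3 of 5.

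Npm1 and Rrs1 were higher in detected cells of all 5 mice. Npm1 stood at 806, 885, 808, 886 and 925 CPM in undetected and 995, 899, 1074, 999 and 1147 CPM in detected cells, in the same order (0.24 ± 0.12, edgeR adjusted p = 0.693), and its difference turned to -0.14 at 1500 UMIs. Rrs1, a factor that brings the 5S particle to the large subunit, stood at 38.2, 23.3, 39.4, 34.6 and 51.6 against 59.7, 83.6, 74.9, 67.5 and 66.2 CPM (0.92 ± 0.47, edgeR adjusted p = 0.712). The detected sums held 26, 24, 20, 40 and 23 cells of 2000 UMIs each, so Rrs1 rested on few UMIs there in every mouse. Ncl (0.28 ± 0.13, higher in 3 of 5), Nop56 (0.65 ± 0.28, 4 of 5) and Noc2l (0.54 ± 0.33, 4 of 5) had edgeR adjusted p values of 0.639, 0.575 and 0.828. Intervals were wide, and only 12 of 29 lay within a 2-fold change. Of the wider pathway 0 of 83 genes were called. Ddx54 (-0.77 ± 0.31) was lower in detected cells of all 5 mice, though 0.22 in another draw of 2000 UMIs. Sbds (-1.03 ± 0.43) was higher in 1 of 5, and Ddx18 (0.59 ± 0.30) and Utp3 (0.60 ± 0.32) were higher in 4 and 3 of 5, and these 4 had edgeR adjusted p values of 0.450, 0.526, 0.712 and 0.744. Ribosomal protein genes had a median of -0.11, with 5 of 80 positive. Ldha was 0.48 ± 0.28 and Mki67 0.24 ± 0.34 (edgeR adjusted p = 0.794 and 0.942).

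The calls depended on how cells and UMIs were read. With all UMIs, cells with a Myc UMI (273 cells, median 4465 UMIs, 29.7% activated) were set against those without (1308 cells, 3611 UMIs, 7.42% activated) in all 6 mice. Then 18 of 32 genes rose. Of all 7691 genes, 303 were called higher and 166 lower (6.10% in either direction). All 32 were positive, against 49.9% of all genes, and the median was 0.60. Npm1 stood at 841, 858, 809.9, 725, 836 and 875 CPM in undetected and 1185, 1601, 1643, 1229, 1280.1 and 1238 CPM in detected cells of LDHA-sufficient 1 to 3 and LDHA-deficient 1 to 3. It rose by 0.71 ± 0.08 (edgeR adjusted p = 3.52e-08), with no overlap. Ncl rose by 0.74 ± 0.09 (9.91e-08), Nhp2 by 0.96 ± 0.15 (1.58e-05) and Rrp1b by 1.62 ± 0.29 (0.00017), each higher in 6 of 6 mice. Of the other lists, 9 of 109 ribosome biogenesis genes, 18 of 80 ribosomal protein genes and 7 of 20 S phase genes rose. Depth and the activated share moved with this split, as the values above show.

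Other readings fell between these. With Myc read at 2000 UMIs but all UMIs summed, and at least 10 cells a sum, a reading added after the data were seen, 0 of 31 genes were called against 0.567% of 7228 genes. There 29 of 31 were positive, 11 had an unadjusted p under 0.05 and the median was 0.37. Ncl came nearest, higher in 6 of 6 mice (0.41 ± 0.12, edgeR adjusted p = 0.0961). In thinned cells outside the activated cluster 0 of 19 genes were called, against 0.187% of 4283 genes. There 6 of 19 were positive, none had an unadjusted p under 0.05, and the median was -0.07 against -0.09 for all genes. With cells assigned to mice by the ratio of their hashtags instead, Ncl was called (0.52, edgeR adjusted p = 0.00626). That fit also took at least 10 cells a sum, not 20, and so held all 6 mice. Its detected sums held 18 and 19 cells in LDHA-sufficient mice 2 and 3. Assignment and minimum thus changed together.

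**Figure D5:**
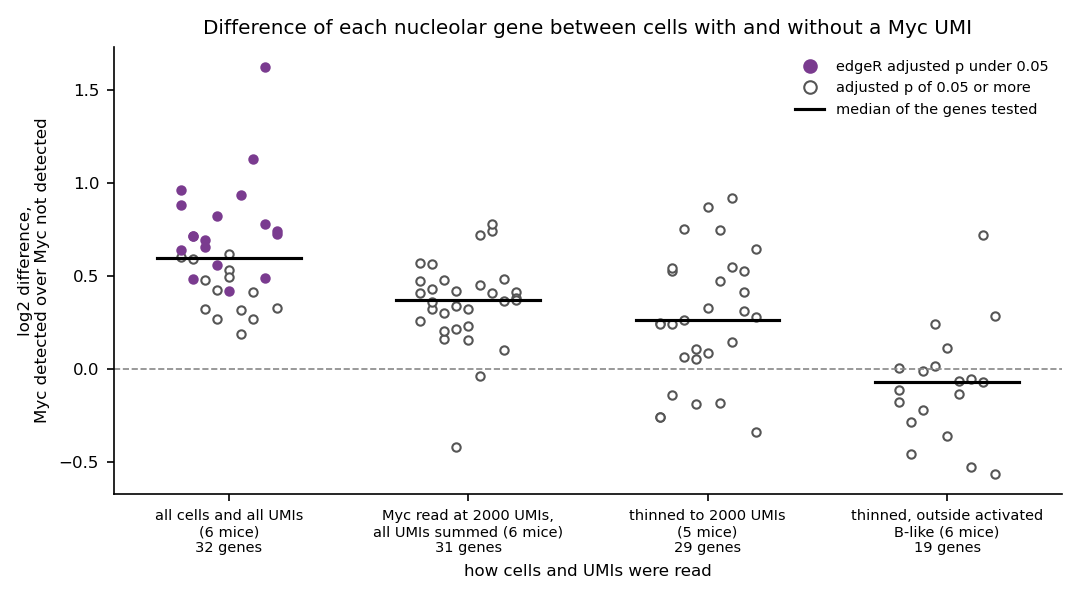
Log2 difference of each nucleolar gene between Myc-detected and undetected cells outside the GC under 4 readings of the cells and UMIs, with the median as a bar and genes past an edgeR adjusted p of 0.05 filled. The median is 0.60 with all UMIs, 0.37 with Myc read at 2000 UMIs, 0.27 with all counts thinned and -0.07 outside activated B-like cells; only the first holds called genes (18).

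Whether the relation to Myc differed between genotypes was tested as an interaction at 2000 UMIs. Of the 29 genes 0 were called, against 0.0182% of 5505 genes, and none had an unadjusted p under 0.05. The median was 0.10, with 16 of 29 positive, and 3 of 29 intervals lay within a 2-fold change, so the intervals allow large differences in most genes. Heatr1, a factor of early transcription and small subunit processing, had the smallest p (1.45 ± 0.81). It stood at 84.7, 64.7 and 78.8 CPM in undetected and 19.9, 104 and 24.97 CPM in detected cells of the LDHA-sufficient mice. In LDHA-deficient mice 2 and 3 it stood at 52.7 and 59.7 CPM in undetected and 67.5 and 154 CPM in detected cells. The detected sums held 26, 24 and 20 cells in the LDHA-sufficient and 40 and 23 in these LDHA-deficient mice. At 2000 UMIs a cell, Heatr1 rested on few UMIs there. Polr1b (-2.52 ± 1.83), Ddx21 (0.57 ± 0.43), Pes1 (-1.14 ± 0.92), Polr1a (-1.48 ± 1.30) and Gnl3 (0.71 ± 0.69) followed, all with an edgeR adjusted p of 1. Of the wider pathway Dis3 (-2.15 ± 1.05), Utp11 (-2.34 ± 1.16), Ddx52 (-1.76 ± 1.01) and Snu13 (0.95 ± 0.56) had the smallest p, also with an adjusted p of 1.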

How the data were processed

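The authors deposited UMI counts per gene and barcode for 1 lane of 5′ single-cell RNA sequencing, with hashtag counts of the same barcodes. Per the file headers the counting tool was Cell Ranger 6.0.2, while the submitters' processing notes list version 6.0.0 of it, with mm10 as the genome build and Seurat 4.2.1. The 32 genes and all lists were chosen with earlier results of these data known.

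Cells were assigned to mice with HTODemux (Seurat 5.3.0, quantile 0.99) and kept with at least 500 genes, at least 1000 UMIs and under 10% mitochondrial counts. Scrublet called 0 doublets and had thus not worked. Barcodes with hashtags of several mice were removed, and about 167.2 doublets within a mouse (9.01%) may remain. Cells were clustered with scanpy 1.11.5 (Leiden, resolution 0.8, 20 neighbours, 30 components, 2000 variable genes, without the genes under study), and clusters were named from at least 3 markers of a fixed list.

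UMIs were summed per mouse and class (at least 20 cells, or 5 for GC B-like cells) and tested with edgeR 4.0.16 in R 4.3.3 (TMM scaling, filterByExpr, robust quasi-likelihood fit, Benjamini-Hochberg adjustment over all genes tested, threshold 0.05). DESeq2 1.42.0 was an alternative. Myc fits at 1500 UMIs, outside the activated cluster, with the hashtag ratio and at resolution 0.4 took at least 10 cells a sum. The Myc fit with 2 or more Myc UMIs took at least 3. Standard errors were taken as the log2 difference over the square root of F. Comparisons within a mouse (classes, or cells with and without Myc) had the mouse as a block, since both sums come from the same animal. Myc itself was left out of tests between cells split by Myc. The Python was 3.11.15. The scripts were tested on simulated counts.

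In each comparison the 6 nucleolar genes and the 4 other pathway genes of smallest p were named, with Ldha, Myc and Mki67 where tested. By state the 6 genes of highest mean level and the 2 highest and 2 lowest ratios of GC to follicular cells were named, and other ratios were added after they were seen. Intervals of shares are exact binomial and cover counting error only. The heavy chain library was not used here.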

Additional observations from a re-analysis of the deposited data

How the results depend on the processing

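No nucleolar gene was called in 96 of 99 fits over all comparisons and settings. The exceptions were Nop58 over all B cells without LDHA-sufficient mouse 3, 18 genes with unthinned counts and Ncl with the hashtag ratio. The last of these fits took at least 10 cells a sum. Counts of all called genes were less stable, and the cause was not tested. By genotype over all B cells (100 genes) they were 200 with DESeq2, 169 with the hashtag ratio, 52 with library totals and 703 with no filter. Outside the GC (6) they were 1 with DESeq2, 32 with no filter and 17 at resolution 0.4, and in activated cells (3) 1 with DESeq2, 15 with no filter, 5 at resolution 0.4 and 1 without high Scrublet scores. In GC B-like cells (0) they were 5 with DESeq2, 9 when clustered with nucleolar genes, 7 with the hashtag ratio and 46 with no filter. For the class difference (9) these were 0, 4, 15 and 36. For Myc (26) they were 95 with 2 or more Myc UMIs, 6 with DESeq2, 41 with Myc read at 2000 UMIs and unthinned counts, 70 with no filter, 8 outside activated cells and 469 unthinned. Hashtag numbers pair no mice across genotypes; without the mouse as replicate block the Myc comparison gave 17. For Myc by genotype (1) they were 0 with 2 or more Myc UMIs, with DESeq2 and with a minimum of 10 cells, 2 with no filter and at resolution 0.4, and 3 outside activated cells. Without 1 mouse counts ran from 1 to 1479 (all B cells), 6 to 17 (outside the GC), 2 to 15 (activated), 0 to 12 (GC), 1 to 74 (class difference), 9 to 29 (Myc) and 3 to 7 (Myc by genotype). Medians of the nucleolar genes moved in 3 fits, to 0.41 (GC) and 0.28 (class difference) when clustered with nucleolar genes and to 1.21 for Myc by genotype with 2 or more Myc UMIs. Of 1208 values of single genes 57 changed sign. In GC B-like cells, clustered with nucleolar genes, Nolc1 was 0.52, Gnl3 0.92, Gar1 0.17 and Mki67 -0.21, and Gar1 was 0.30 with the hashtag ratio. Without 1 mouse Nop10 ran from -0.10 to 0.57, Nolc1 from -0.71 to 0.022, Gnl3 from -2.16 to 0.21 and Gar1 from -0.89 to 0.027. In the class difference, clustered with nucleolar genes, Nop14 was 0.33, Nolc1 0.30, Pes1 0.051, Myc 0.046, Mki67 -0.14 and Utp14a 0.15, and without 1 mouse Ldha ran from -1.36 to 0.16. Between cells split by Myc, thinned to 1500 UMIs, Nop56 was -0.10, Npm1 -0.14, Noc2l -0.29 and Utp3 -0.27, and outside activated cells Ncl was -0.055 and Npm1 -0.13. With 2 or more Myc UMIs Npm1 was -0.16, Noc2l -0.40, Ldha -0.80, Mki67 -2.78, Ddx18 -1.13 and Utp3 -0.65. In another draw Mki67 was -0.72 and Ddx54 0.22, and unthinned Ddx54 was 0.053. With the hashtag ratio Mki67 was -0.70 and Sbds 0.24, at resolution 0.4 Mki67 was -0.31, Sbds 0.19 and Utp3 -0.017, and without 1 mouse Mki67 ran from -0.0046 to 0.49. In Myc by genotype Ddx21 was -0.26 outside activated cells, -0.16 at 1500 UMIs and -0.30 to 1.2 without 1 mouse. There Pes1 was 6.29 and Mki67 5.20 with 2 or more Myc UMIs, Polr1a 0.049 unthinned, and Gnl3 -0.17 at 1500 UMIs and -0.59 to 1.46 without 1 mouse. Ldha was -0.37 with Myc read at 2000 UMIs, -0.034 in another draw, -0.076 with the hashtag ratio, -0.021 with library totals, -0.32 at resolution 0.4, -1.25 at 1500 UMIs, -1.08 unthinned and -0.18 to 0.31 without 1 mouse. Mki67 was 0.15 with the hashtag ratio, and Ddx52 0.21 with Myc read at 2000 UMIs and 1.66 at resolution 0.4. The minimum of 10 cells, Myc read at 2000 UMIs with unthinned counts and the other draw were chosen after seeing the data.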

Other observations

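The 3 follicular B-like clusters differed in ribosomal protein transcripts more than in nucleolar ones. Ribosomal protein genes summed to 266819 ± 6095 CPM in the first cluster, 136833 ± 8039 CPM in the second and 147739 ± 4231 CPM in the third (SD, n = 6 mice). The 32 nucleolar genes summed to 2833 ± 59.1, 2687 ± 105 and 3194 ± 221 CPM in the same clusters. This is a description of clusters drawn from the same cells, with no test.

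Gnl3 stood out in plasma cell-like cells of LDHA-sufficient mouse 1, with 47 UMIs in 7 cells (378 CPM, exact Poisson interval 278 to 502, counting error only). A single cell held 42 of these, and the other cells held 5. In the plasma cell-like cells of the other mice that had any, Gnl3 had 0 to 2 UMIs.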
